A study of Mus musculus with 5 samples.

Results

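The genes described here encode the subunits of the hypoxia-inducible factors (HIF) and the proteins that set the activity of these factors by the oxygen level: Hif1a, Epas1 and Arnt for the subunits, Egln1, Egln2 and Egln3 for the prolyl hydroxylases, Vhl for the recognition subunit of the ubiquitin ligase, and Hif1an for the asparaginyl hydroxylase. All probe sets that the platform annotation gives to 1 of these 8 genes alone were taken, which were 21 of the 34945 single-gene probe sets (8 of 18193 genes) of the Affymetrix mouse array used, and no member was found on a probe set with several genes. Plasma cells (PCs) came from the bone marrow of C57BL/6J mice that had been primed and then boosted with the hapten-protein conjugate NP-CCG (so spelled in the labels, NP-CGG in the study's methods) in incomplete adjuvant, at a time when over 30 days had passed since the final injection. Cells bearing B220 or CD49b were depleted magnetically and CD138high PCs were then enriched, and no age of the mice is given in the labels. In the ex vivo group (2 arrays, 1 for each of 2 experiments) RNA was prepared from these cells directly. In the cultured group (1 array for experiment 1 and 2 for experiment 2) the PCs were kept for 3 days on ST2 cells, a fibroblast-like stromal line of BALB/c marrow origin, with the cytokine APRIL at a physiological oxygen level, and were then recovered by flow sorting. Culture, the stromal cells, APRIL, the oxygen level of the culture and the sort therefore came together in this comparison and cannot be told apart. Nothing in the labels says that the 2 cultured arrays of experiment 2 were separate cultures, so their spread may be technical.

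In cells with enough oxygen, the prolyl hydroxylases modify the alpha subunits HIF-1 alpha (Hif1a) and HIF-2 alpha (Epas1), the von Hippel-Lindau protein binds the modified form, and the subunit is degraded. The asparaginyl hydroxylase FIH (Hif1an) blocks the recruitment of coactivators by the alpha subunit, and an alpha subunit that escapes both reactions pairs with ARNT and drives genes of glycolysis and of adaptation to low oxygen. HIF activity is thus set largely at the protein level, which the arrays did not measure, whereas Egln1 and Egln3 are themselves well known HIF target genes. The bone marrow in which long-lived PCs reside is a tissue of low oxygen.

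All values below are log2 of RMA intensities, and levels are compared only between arrays for the same probe set, because probe sets differ in their response. Of the 21 probe sets, 18 reached an intensity of 50 in at least 2 arrays and were tested, and they covered all 8 genes. No detection call was used. The brightest probe set was above 50 in every array for 7 of the genes, and that of Egln3 was above 50 only after culture. In culture, Egln3 on that probe set was at least 4.11-fold higher when its ex vivo arrays, both below 50, were set to 50. The fitted difference, which rests on those dim ex vivo values, was 5.17-fold (95% interval 3.83 to 6.96). Egln1 was 1.49-fold and 1.44-fold higher on its 2 probe sets, and Egln2 was 0.79 times its ex vivo level. None of these passed the test (limma adjusted p of 0.698, 0.577 and 0.814). Hif1a, Arnt and Vhl had differences from -0.03 to 0.30 on the log2 scale with intervals that spanned 0. Epas1 differed by -0.10 and 0.11 in experiment 1 and was higher by 0.75 to 1.21 in experiment 2, and Hif1an had lower values on both tested probe sets without passing the test. Stromal markers were also higher in the cultured arrays, with values given further on, and in bulk RNA a change in the number of cells of a type and a change in RNA per cell cannot be told apart.

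None of the 18 tested probe sets passed an adjusted p of 0.05 for culture in limma without the experiment as a block, where 0.0459 percent of all 30477 tested probe sets were called. At an unadjusted p under 0.05 there were 5, against 6.59 percent of all probe sets, and they were both probe sets of Egln1, both of Egln3 and 1 of Epas1, all higher in culture, as 3.98 percent of all probe sets were. With the experiment as a block 1 was called, Egln3 (1418649_at), against 1.8 percent of all probe sets in either direction and 1.24 percent higher. That probe set passed the filter through its cultured arrays alone, so a difference was built into its selection and the call is given as a description. In 5 probe sets every cultured array lay above every ex vivo array, which held for 9.42 percent of all probe sets, and in 2 every cultured array lay below, which held for 10.6 percent. The median difference over the 18 probe sets was 0.21 on the log2 scale, beside -0.02 over all tested probe sets. With 2 arrays against 3, the smallest 2-sided p that an exact permutation test of a single value can give is 0.1, so no such test could pass 0.05.

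**Figure D1:**
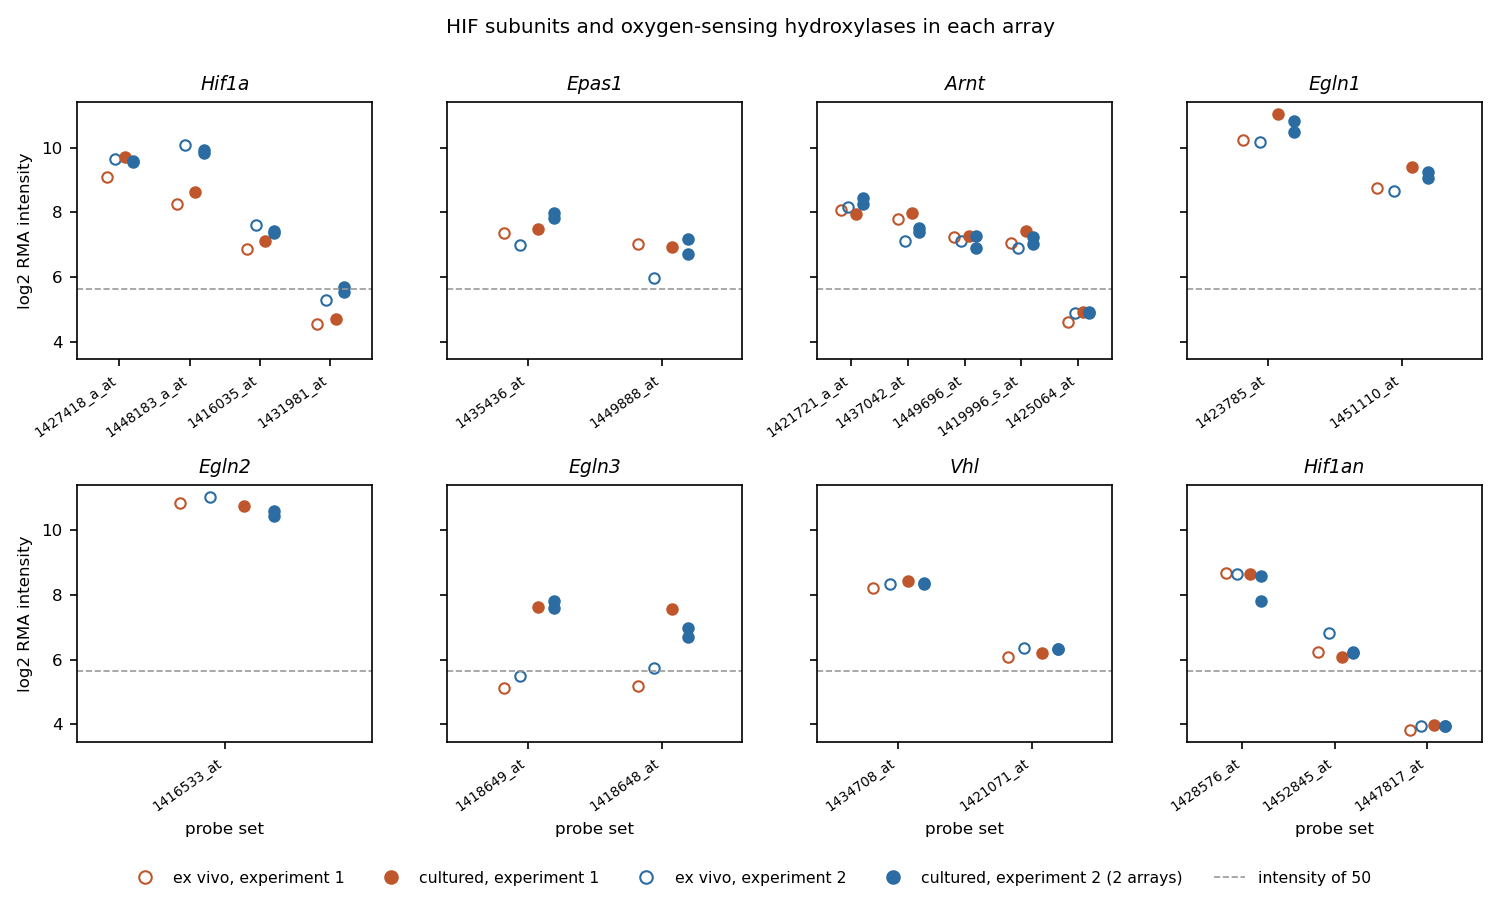
Log2 RMA intensity (y axis) of each of the 21 probe sets (x axis) of the 8 genes, 1 panel per gene; open circles are ex vivo arrays, filled circles cultured arrays, orange is experiment 1 and blue experiment 2, and the dashed line marks an intensity of 50. The cultured arrays lie clear above the ex vivo arrays for Egln3 and, by less, for Egln1, whereas the colours rather than the fills separate the arrays for Hif1a (1448183_a_at).

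The prolyl hydroxylases PHD2 (Egln1), PHD1 (Egln2) and PHD3 (Egln3) are the oxygen sensors of the pathway. The 250 bases before the gene start are shown for these 3 related genes, since they share a reaction. Their fitted differences in culture were not of 1 sign, and none passed the test without the block. With the block only Egln3 (1418649_at) was called, a probe set that passed the filter through its cultured arrays alone. The HIF core motif was searched as ACGTG and GCGTG on both strands, where an overlapping match on the other strand counted separately, and capitals mark the matches, CACGC being GCGTG on the other strand. The sequences are from RefSeq on GRCm38.p6 and run 5′ to 3′ along the gene.
Egln1, chr8:124949255-124949504, minus strand: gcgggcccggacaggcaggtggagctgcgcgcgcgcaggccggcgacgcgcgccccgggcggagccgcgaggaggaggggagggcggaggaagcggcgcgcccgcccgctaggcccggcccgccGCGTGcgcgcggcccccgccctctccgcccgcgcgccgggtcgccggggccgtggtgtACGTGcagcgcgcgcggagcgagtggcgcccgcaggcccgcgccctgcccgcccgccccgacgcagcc
Egln2, chr7:27166803-27167052, minus strand: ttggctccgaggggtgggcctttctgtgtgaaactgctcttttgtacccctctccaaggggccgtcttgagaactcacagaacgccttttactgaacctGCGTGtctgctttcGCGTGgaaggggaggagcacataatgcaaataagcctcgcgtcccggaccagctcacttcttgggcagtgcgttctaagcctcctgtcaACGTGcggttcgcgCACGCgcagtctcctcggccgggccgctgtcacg
Egln3, chr12:54203875-54204124, minus strand: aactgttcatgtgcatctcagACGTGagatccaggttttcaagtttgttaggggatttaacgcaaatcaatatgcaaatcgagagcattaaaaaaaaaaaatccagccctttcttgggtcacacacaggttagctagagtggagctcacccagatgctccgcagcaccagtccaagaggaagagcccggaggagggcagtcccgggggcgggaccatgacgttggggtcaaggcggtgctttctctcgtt
The windows of 7 of the 8 genes were found, and Epas1 was not among them. The Egln1 window held 2 matches, at 126 and 68 bases before the start, the Egln2 window 4 and the Egln3 window 1, at 229 bases before the start. At least 1 match was present in 38.6 percent of all 32851 windows, at least 2 in 16.7 percent and at least 4 in 2.58 percent. The Hif1a window held 3 matches counted over both strands and the Arnt window 1, a second Egln2 window held 1, and those of Vhl and Hif1an held none. The matches describe the letters of these windows only.

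PHD3 (Egln3) had the largest difference of the family. On the probe set 1418649_at the values were 5.14 and 5.49 in the ex vivo arrays of experiments 1 and 2, and 7.63, 7.82 and 7.60 in the cultured array of experiment 1 and the 2 of experiment 2. The same order of arrays is kept for every probe set below. Every cultured array lay far above both ex vivo arrays, and the ex vivo intensities of 35.2 and 44.9 were below the level of 50 used as the filter, so this probe set entered the test only through its cultured arrays (198, 226 and 194), and the values of the fit below describe it with that limit. The difference was 2.37 (SE 0.17), with an adjusted p of 0.0523 in limma without the block and of 0.00389 with it, where the difference was 2.34 (SE 0.13). Both fits count the 2 cultured arrays of experiment 2 separately. When these were averaged, the limma adjusted p was 0.421 without the block and 0.0131 with it. Without the block the adjusted p was 0.0307 when the cultured array of experiment 1 was left out and between 0.459 and 0.69 when any of the other 4 arrays was, with differences of 2.19 to 2.54. Cultured minus ex vivo was 2.49 in experiment 1, and 2.33 and 2.11 for the 2 cultured arrays of experiment 2.

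The other Egln3 probe set, 1418648_at, had values of 5.18 and 5.75 ex vivo and of 7.57, 6.98 and 6.72 after culture. The groups did not overlap here either, but the change was larger in experiment 1 (2.39) than in experiment 2 (1.23 and 0.97). Its difference was 1.62 (SE 0.32), which is 3.08-fold with a 95% interval of 1.75 to 5.42, and the adjusted p in limma was 0.335 without and 0.0652 with the block. Both probe sets of Egln3 thus had the same direction in each pair of arrays and overlapping intervals, and the difference in size between the experiments on 1418648_at did not pass the test (interaction -1.29, limma adjusted p = 0.654).

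PHD2 (Egln1), the main hydroxylase for HIF-1 alpha in most cells, was measured well above the filter in all 5 arrays. On 1423785_at the values were 10.23 and 10.19 ex vivo and 11.04, 10.49 and 10.81 after culture. On 1451110_at they were 8.76 and 8.65 ex vivo and 9.39, 9.24 and 9.06 after culture. The ex vivo arrays of the 2 experiments lay within 0.11 of each other on both probe sets and below every cultured array. The differences were 0.57 (SE 0.20, 95% interval 0.07 to 1.07) and 0.53 (SE 0.15, 0.13 to 0.92), and the limma adjusted p was 0.698 and 0.577 without the block and 0.125 and 0.0923 with it. The change was positive in each of the 3 pairs on both probe sets, from 0.30 to 0.81.

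PHD1 (Egln2) is represented by 1 probe set, 1416533_at. Its values were 10.85 and 11.02 ex vivo and 10.74, 10.45 and 10.60 after culture. All 3 cultured arrays lay below both ex vivo arrays, though by only 0.10 in experiment 1 against 0.57 and 0.42 in experiment 2. The difference of -0.34 (SE 0.15, 95% interval -0.73 to 0.05) did not pass the test (limma adjusted p = 0.814). Across the family, then, the difference was positive for Egln3 and Egln1 and negative for Egln2, with an interval for Egln3 of 1.94 to 2.80 on 1418649_at and of 0.81 to 2.44 on 1418648_at, the latter overlapping both intervals of Egln1. The difference between the genes was not tested.

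**Figure D2:**
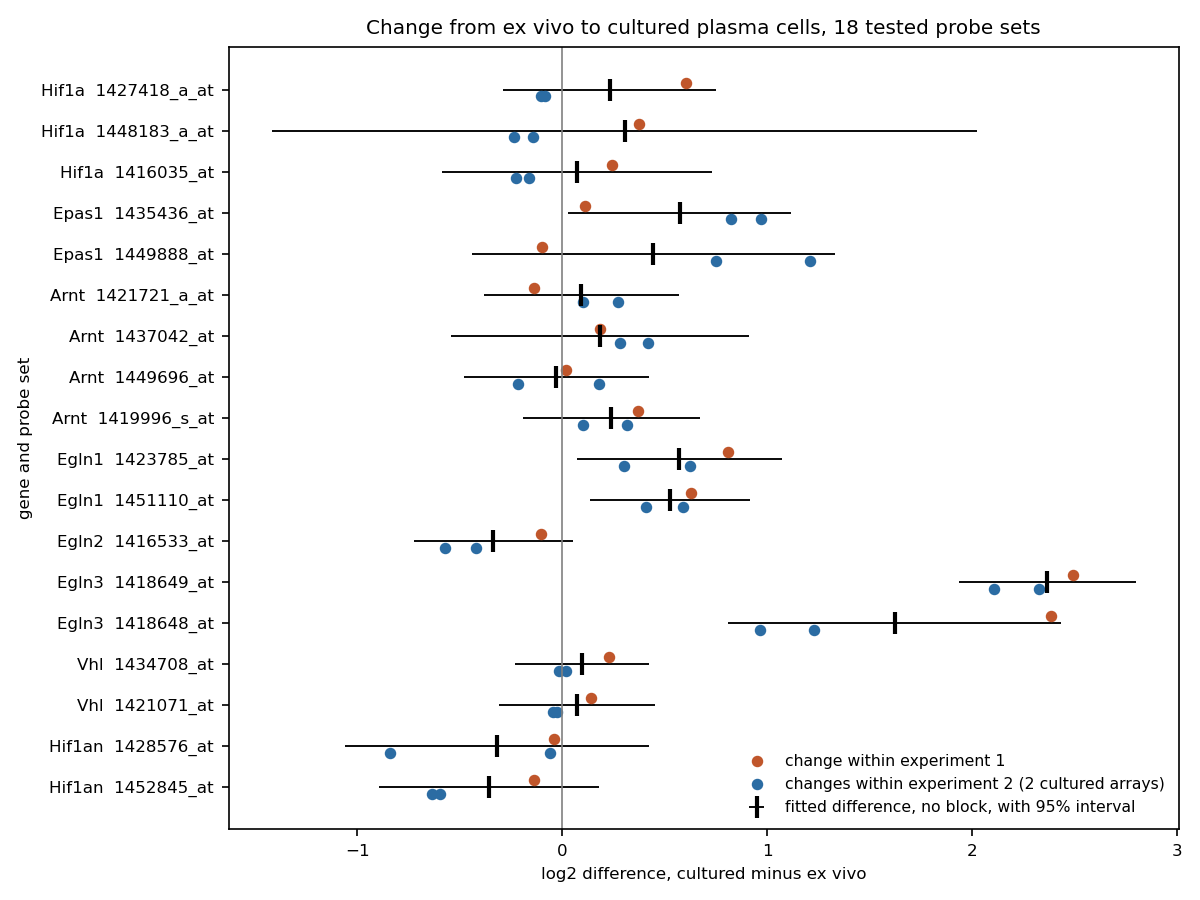
Difference in log2 intensity, cultured minus ex vivo (x axis), for the 18 tested probe sets (y axis); black ticks and lines are the fitted difference without the block and its 95% interval, orange points the change within experiment 1 and blue points the 2 changes within experiment 2. Egln3 and Egln1 have all points to the right of 0, Egln2 and Hif1an all points to the left, and the orange point lies across 0 from both blue points for all 3 Hif1a probe sets.

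Hif1a encodes the inducible alpha subunit of HIF-1. Its brightest probe set, 1427418_a_at, had values of 9.10 and 9.66 ex vivo and of 9.70, 9.56 and 9.58 after culture, so that only the ex vivo array of experiment 1 stood apart from the other 4. The second, 1448183_a_at, had 8.25 and 10.08 ex vivo and 8.63, 9.84 and 9.94 after culture, and here both arrays of experiment 1 lay far below all 3 of experiment 2. On 1416035_at the values were 6.87 and 7.60 ex vivo and 7.11, 7.37 and 7.44 after culture. Groups overlapped on each of the 3 probe sets. The differences for culture were 0.23 (SE 0.20), 0.30 (SE 0.68) and 0.07 (SE 0.26), none passed the test (limma adjusted p 0.902, 0.951 and 0.967), and their 95% intervals reached from -0.29 to 0.75, from -1.42 to 2.03 and from -0.59 to 0.73. With the experiment as a block, the interval of 1448183_a_at was -0.34 to 0.45. A further probe set, 1431981_at, had 4.56 and 5.30 ex vivo and 4.70, 5.69 and 5.54 after culture, reached 50 in 1 array and was not tested.

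The experiment separated the arrays on 1 of the Hif1a probe sets. With culture in the model, 1448183_a_at was higher in experiment 2 by 1.50 (SE 0.16, 2.83-fold, limma adjusted p = 0.00446), whereas 1427418_a_at differed by 0.17 (SE 0.18, adjusted p = 0.525) and 1416035_at by 0.48 (SE 0.14, adjusted p = 0.0531). The call of 1448183_a_at was lost when either ex vivo array was left out (1.26) or the cultured array of experiment 1 (1.82). These fits leave 1 residual degree of freedom. Leaving out either ex vivo array gives the same fit, since the other is then fitted exactly. The probe sets of this gene therefore disagreed on the size of the difference between experiments. In all, 2 of the 18 tested probe sets were called for the experiment, against 26.8 percent of all probe sets, and the other one was an Arnt probe set. RNA measures moved with the experiment as well. As a measure of RNA integrity, control probe sets at the 3′ and 5′ ends of Actb were set against each other, and their log2 ratio in experiment 1 was 0.31 before and 0.77 after culture, as against -0.12 before and -0.11 and -0.01 after culture in experiment 2. The Gapdh ratios were 0.74 and 0.63 in the first experiment and 0.34, 0.30 and 0.28 in the second. The part of these ratios in the difference between the Hif1a probe sets was not tested.

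Epas1 encodes HIF-2 alpha, which is best known from endothelial cells but also occurs in other cell types. On 1435436_at the values were 7.37 and 7.01 ex vivo and 7.48, 7.83 and 7.98 after culture. The lowest cultured array, that of experiment 1, was above the higher ex vivo array by only 0.11, whereas in experiment 2 culture was higher by 0.82 and 0.97. The difference was 0.57 (SE 0.21, 1.49-fold, 95% interval 0.03 to 1.12 on the log2 scale) and did not pass the test (limma adjusted p = 0.742). On 1449888_at the values were 7.02 and 5.97 ex vivo and 6.92, 7.18 and 6.72 after culture, with overlapping groups, a change of -0.10 in experiment 1, changes of 1.21 and 0.75 in experiment 2, and a difference of 0.45 (SE 0.35, limma adjusted p = 0.889). On both probe sets the ex vivo array of experiment 2 was the lowest of the 5. The dependence on the experiment did not pass the interaction test on either probe set (0.78 and 1.08, limma adjusted p = 0.654 for both). In that test none of all tested probe sets was called (0.0 percent), and 6.59 percent had an unadjusted p under 0.05, among them 4 of the 18.

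Arnt, the constitutive partner of both alpha subunits, showed small differences. On 1421721_a_at, the brightest, the values were 8.09 and 8.17 ex vivo and 7.95, 8.45 and 8.27 after culture, and the difference was 0.09 (SE 0.19). On 1437042_at they were 7.79 and 7.11 ex vivo and 7.98, 7.53 and 7.40 after culture, with a difference of 0.18 (SE 0.29). This was the other probe set called for the experiment, and it was lower in experiment 2 by 0.58 (-0.58 on the log2 scale, SE 0.12, limma adjusted p = 0.0188), the opposite direction to Hif1a. That call was lost without either ex vivo array (-0.51, the same fit for both) and without the cultured array of experiment 1 (-0.68). It was also lost when the second of the cultured arrays of experiment 2 was left out (-0.56, limma adjusted p = 0.0763). The remaining tested probe sets, 1419996_s_at and 1449696_at, had differences of 0.24 (SE 0.17) and -0.03 (SE 0.18). The adjusted p for culture was above 0.8 in limma for all 4, and each interval spanned 0. The probe set 1425064_at lay between 4.60 and 4.93 in all arrays and was not tested.

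Vhl, the recognition subunit of the ligase that removes hydroxylated alpha subunits, had the narrowest intervals of the 8 genes for culture on its brighter probe set. On 1434708_at the values were 8.22 and 8.35 ex vivo and 8.45, 8.33 and 8.36 after culture, with a difference of 0.10 (SE 0.13, 95% interval -0.23 to 0.42). On 1421071_at they were 6.07 and 6.36 ex vivo and 6.21, 6.34 and 6.32 after culture, with a difference of 0.07 (SE 0.15, -0.31 to 0.45). The groups overlapped on both, and both intervals spanned 0.

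Hif1an encodes FIH. On 1428576_at the values were 8.70 and 8.66 ex vivo and 8.65, 7.82 and 8.60 after culture. All 3 cultured arrays were below the ex vivo arrays, but only the first cultured array of experiment 2 by more than 0.10. The difference was -0.32 (SE 0.29, limma adjusted p = 0.909), and it was -0.05 without that array. On 1452845_at the values were 6.23 and 6.83 ex vivo and 6.10, 6.23 and 6.19 after culture, where the ex vivo array of experiment 2 stood above the other 4, and the difference was -0.36 (SE 0.21, adjusted p = 0.858), or -0.06 without that array. Both probe sets were lower in each of the 3 pairs without passing the test, and 1447817_at stayed between 3.83 and 3.99 and was not tested. Within experiments, 7 of the 18 probe sets of all 8 genes were higher in each of the 3 pairs, where 23.1 percent of all probe sets were, and 3 were lower in each, where 24.9 percent were.

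The other genes of the pathway, a list of 19 that act with the HIF subunits (the ligase components Elob, Eloc, Cul2 and Rbx1, the coactivators Crebbp and Ep300, the coactivator competitors Cited2 and Cited4, and others), were read on the brightest probe set of each gene. Of these, 15 were tested, none was called in limma in either direction with or without the block, and their differences ran from -0.47 to 0.48 with a median of -0.02, beside a median of -0.06 over all 13578 genes. Cited2, which competes with HIF-1 alpha for its coactivators, had the largest positive difference of 0.48 (SE 0.15, adjusted p = 0.642), and its values were 12.33 and 12.51 ex vivo and 12.76, 12.88 and 13.05 after culture. The largest negative ones were those of Cited4 with -0.47 (SE 0.40), of the membrane-bound prolyl hydroxylase P4htm with -0.46 (SE 0.14) and of Elob with -0.40 (SE 0.25). Thus neither the ligase nor the coactivator genes passed the test.

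Target genes of HIF, by contrast, had higher means in culture for all 19 tested of 20 listed, with a median difference of 1.25 and a range of 0.12 to 2.61. In the fit without the block none of the 19 was called, and with the block 10 were called, all higher, as against 153 higher and 83 lower of all 13578 genes. The list was drawn up with such results known, so its direction is no independent evidence. The largest differences were those of Ankrd37 (2.61, SE 0.39), the secreted vasodilator peptide gene Adm (2.39, SE 0.49), the mitophagy gene Bnip3 (2.08, SE 0.16) and Ndrg1 (2.08, SE 0.34), each called with the block (limma adjusted p of 0.00377, 0.0228, 0.00551 and 0.0241). Egln3 on 1418649_at, with 2.37, lay within this range, and Egln1, with 0.57, lay in its lower portion.

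**Figure D3:**
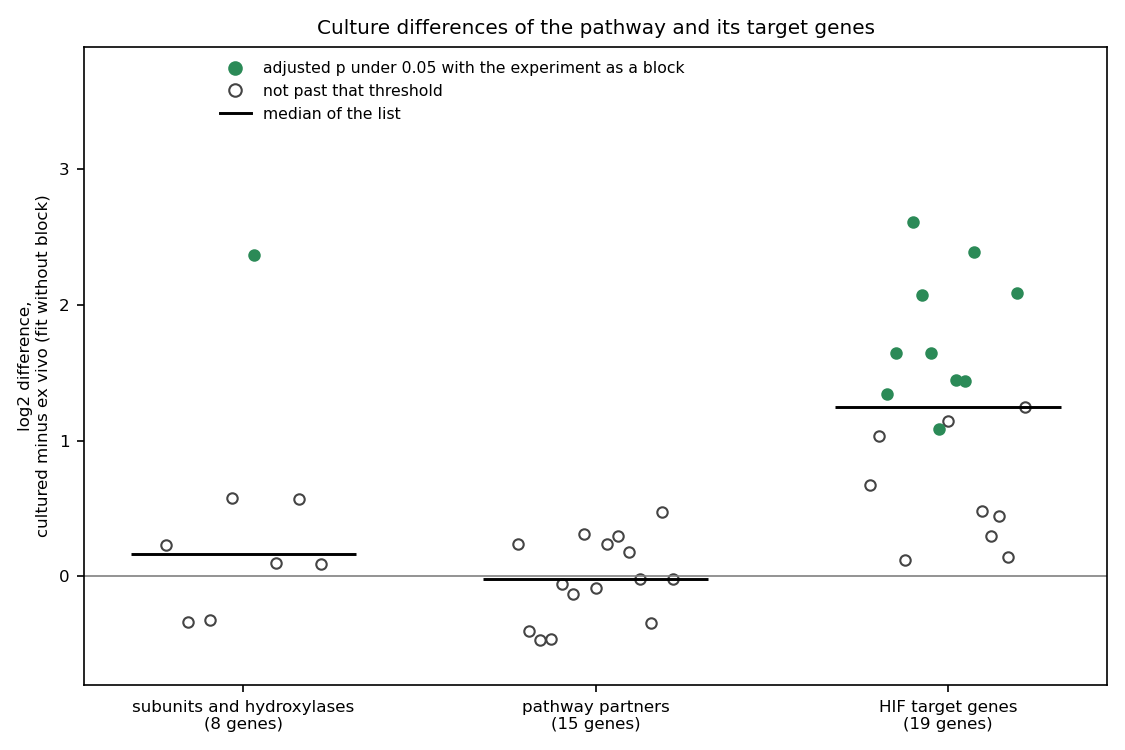
Fitted log2 difference, cultured minus ex vivo, without the block (y axis), for the brightest tested probe set of each of the 8 genes, of the 15 tested pathway partners and of the 19 tested HIF target genes (x axis); filled points had an adjusted p under 0.05 with the experiment as a block, and black lines are list medians. The target genes lie around a median of 1.25, the partners around -0.02, and Egln3 is the only filled point among the subunits and hydroxylases. The Egln3 probe set passed the filter through its cultured arrays alone.

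The genes whose pattern over the 5 arrays was most like that of Egln3 (1418649_at) were sought among 13578 genes by the root mean square difference of centred log2 values, for the brightest probe set only; no other gene of the 8 had a brightest probe set that spanned more than 1. The closest was Tpi1, the glycolytic enzyme triosephosphate isomerase, at 0.153, with 9.66 and 10.02 ex vivo and 11.83, 12.31 and 12.26 after culture. Pcolce, a secreted enhancer of collagen processing, followed at 0.181 with 6.00 and 6.03 ex vivo and 8.35, 8.69 and 8.68 after culture, and Bnip3 at 0.241 with 7.83 and 7.78 ex vivo and 9.68, 9.91 and 10.08 after culture. These are likenesses over 5 arrays of a pattern that is mainly the difference between the groups.

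Markers of stromal cells moved with culture. The summed intensity of 28 stromal marker genes was 1830 and 2009 ex vivo and 7461, 20324 and 20751 after culture, and of the 25 tested 2 were called higher without the block and 15 with it, and none lower. Of the 28, 12 and 16 were below 50 ex vivo and 5, 4 and 5 after culture. Several tested markers passed the filter through their cultured arrays alone. Among them were Col6a1 and Cav1 (3.92 and 4.07 ex vivo), the latter called without the block. For these a higher level was built into their selection, so the counts of calls are given as a description. Collagen VI alpha 1 (Col6a1) went from 4.82 and 4.74 to 9.40, 11.60 and 11.59, and Pcolce, named above for its likeness to Egln3, is one of these markers, whereas Pdgfra lay between 5.68 and 6.04 in all arrays. The summed plasma cell markers were 77719 and 78027 ex vivo and 70804, 71277 and 70198 after culture, with none of the 12 called, and none was below 50 in any array. In all 3 pairs 9 of the 12 were lower and 1 higher, beside 4032 lower and 2569 higher of all 13578 genes. Their differences ran from -0.93 to 0.13 with a median of -0.13, and the bright genes weigh most in the sum.

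The stromal sum was higher in culture by 2.03 in experiment 1 and by 3.34 and 3.37 in experiment 2 on the log2 scale. Egln3 had its largest change in experiment 1 on both probe sets, where the stromal sum changed least, and Egln1 on 1423785_at and 1451110_at had its largest change there too. The changes lay close together on Egln3 1418649_at (2.49 against 2.33 and 2.11) and on Egln1 1451110_at (0.63 against 0.59 and 0.41). No difference between the experiments passed the interaction test for Egln3 or Egln1. Epas1 had its larger changes in experiment 2 on both probe sets, where the stromal sum changed more. On 1449888_at experiment 2 minus experiment 1 was -1.05 ex vivo and 0.03 after culture. On 1435436_at it was -0.36 ex vivo and 0.42 after culture, with the cultured arrays of experiment 2 averaged for both probe sets. The part of stromal RNA in the differences of Egln3, Egln1 and Epas1 was not tested. The summed endothelial markers were 1182 and 1383 ex vivo and 1100 (experiment 1), 1188 and 1109 after culture, with 4 or 5 of 11 below 50 in each array and none called. Macrophage markers summed to 2812 and 2216 ex vivo and 3689, 2706 and 2254 after culture, where 2 of the 11 tested were called higher and 5 lower with the block. Those called higher were Cd68 and Hmox1, with differences of 0.84 and 1.73 without the block. Those called lower were C1qa, C1qb, Mrc1, Fcna and Slc40a1, with -2.36 to -1.61. In all 3 pairs 7 of the 11 were lower and 2 higher, and in a sum of linear intensities the bright genes weigh most. Neutrophil markers summed to 857 and 525 ex vivo and to 432, 421 and 434 after culture, erythroid markers lay between 207 and 253, and B cell markers between 7753 and 8642, with 2 of the 7 tested B cell markers called lower with the block.

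**Figure D4:**
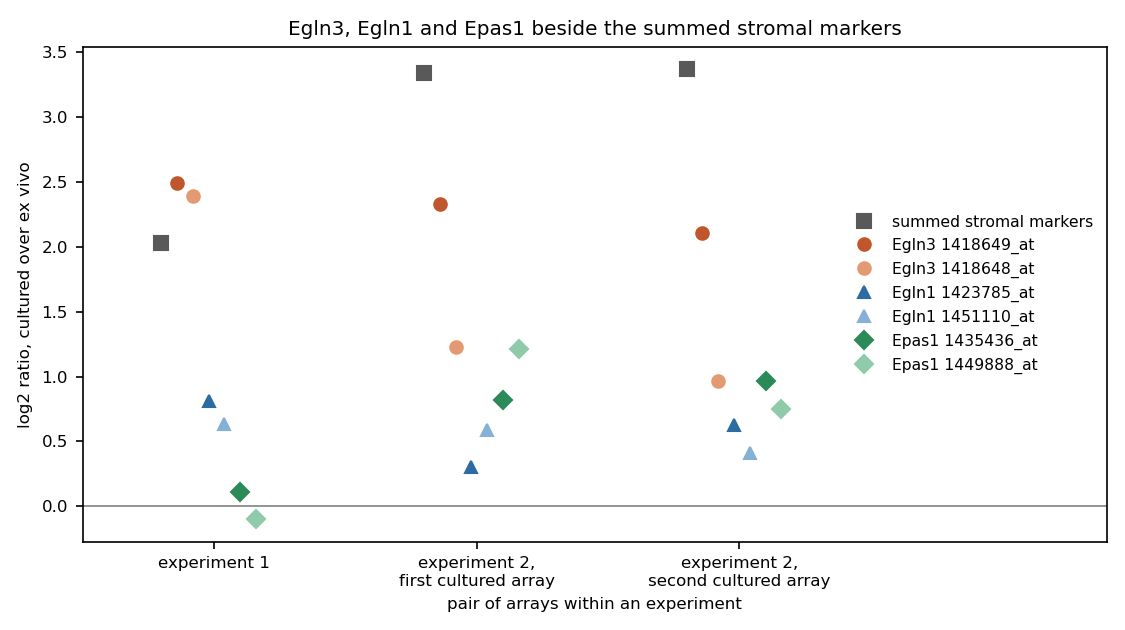
Log2 ratio of cultured over ex vivo (y axis) in the 3 pairs of arrays within an experiment (x axis), for the summed intensity of 28 stromal markers (squares) and for the probe sets of Egln3 (circles), Egln1 (triangles) and Epas1 (diamonds). The stromal ratio was 2.03 in experiment 1 and 3.34 and 3.37 in experiment 2, the Egln3 points were highest in experiment 1, and the Epas1 points were near 0 there and between 0.75 and 1.21 in experiment 2.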

How the data were processed

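RNA of 5 PC samples had been hybridized to Affymetrix mouse arrays. The authors processed the raw signals with RMA in the affy R package, and the submitters' notes also name GCOS, without versions. What they deposited are linear intensities (array medians 87.05 to 94.14), which were here converted to log2 without further normalization. RMA makes the arrays alike in distribution, so a change shared by all genes would not be seen, and the number of arrays limits the precision. Of 45101 probe sets 64 controls were left out, symbols came from the platform annotation checked against RefSeq (GRCm38.p6 annotation), and 30477 probe sets with at least 50 in at least 2 arrays were tested. limma 3.58.1 in R 4.3.3 was fitted to all 5 arrays with culture as the only factor, with Benjamini-Hochberg adjustment over all tested probe sets, and alternatively with the experiment as a block. Both groups carry the same experiment numbers in the labels and the study's replicates were independent experiments, so these numbers were taken as pairs. As a check, each cultured array's deviation from its group mean was correlated with that of its ex vivo partner (0.749 in experiment 1, 0.558 and 0.719 in experiment 2), values that are not independent because 2 ex vivo arrays mirror each other. The difference between experiments was tested with culture in the model, and the interaction with 1 residual degree of freedom. Every probe set of every member is named; for the lists, up to 4 genes that were called or else had the largest differences. Col6a1, Pdgfra and Pcolce were named as stromal examples after their values were seen. The members and lists were chosen with earlier results of these data known. Changes in each pair, alternative filters, normalizations, a variance trend, another threshold and leaving out each array were computed, and the fits were tested on simulated data.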

Additional observations from a re-analysis of the deposited data

Results flagged for a closer look

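For 6 probe sets the change in experiment 1 was opposite in sign to both changes in experiment 2. The value given for each is the interaction, the change in experiment 2 minus that in experiment 1, from a limma fit with 1 residual degree of freedom. The residual comes only from the 2 cultured arrays of experiment 2, whose spread may be technical. The SE therefore holds no spread between experiments. All 3 tested Hif1a probe sets were higher after culture in experiment 1 and lower in experiment 2, with interactions of -0.70 (1427418_a_at, SE 0.13), -0.56 (1448183_a_at, SE 0.15) and -0.43 (1416035_at, SE 0.14). Epas1 (1449888_at) ran the other way, with 1.08 (SE 0.41). Arnt (1421721_a_at) had 0.33 (SE 0.20) and Vhl (1421071_at) -0.17 (SE 0.13). None of the 6 passed the limma test, with adjusted p from 0.654 to 0.71. No test for a single aberrant array was made, since the groups held 2 and 3 arrays.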

How the results depend on the processing

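Of 320 values of the 18 culture differences under the alternatives, 290 kept their direction and their side of the threshold. Another 13 newly passed it, 12 of them for Egln3 1418649_at and 1 for Egln3 1418648_at, and 17 (8 probe sets) changed sign. None of the 18 had passed the test without the block on all 5 arrays, so none could newly miss it. The number of probe sets called for culture was 14 of all and 0 of the 18. It was 0 and 0 with the 2 cultured arrays of experiment 2 averaged, 5 and 0 without a filter, 31 and 1 with a filter at 100, 18 and 1 after quantile normalization, 21 and 1 after centring on the median, 22 and 1 with a variance trend, 68 and 1 at an adjusted p of 0.1, and 0 to 257 and 0 to 1 with each array left out in turn. The experiment numbers pair the samples, and with the replicate block it was 550 and 1, which was 187 and 1 when averaged, 271 and 1 without the first cultured array of experiment 2, 153 and 1 without the second, 206 and 1 without a filter, 685 and 2 with a filter at 100 and 664 and 1 after quantile normalization. The second call with the block and a filter at 100 was Egln3 1418648_at. Its ex vivo intensities of 36.2 and 53.8 were below 100, and its cultured ones were 189, 126 and 105. Like 1418649_at, it passed that filter through its cultured arrays alone. A difference was thus built into its selection, and this call too is given as a description. At an adjusted p of 0.1 the block gave 3 of the 18. The block combined with other settings, and the alternatives for the experiment, were chosen after seeing the data. For the experiment, 2 of the 18 were called, 0 to 2 with each array left out and 3 with a filter at 100. Among the 18 the block changed no other call for culture. For the gene lists it raised the calls from 0 to 10 for HIF targets, 2 to 15 for stromal, 1 to 7 for macrophage and 0 to 2 for B cell markers.

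Hif1a (1416035_at) was -0.0070 with the block, -0.0070 also without a filter or with one at 100, and -0.0567 after quantile normalization with the block. Arnt (1421721_a_at) was -0.0180 with the block and without the first cultured array of experiment 2. Arnt (1449696_at) was 0.0014 with averaged arrays, with or without the block, and 0.0992 with the block and the second of these arrays left out. With each array left out, the culture difference ran from -0.0495 to 0.51 for Hif1a 1427418_a_at, from -0.61 to 1.22 for 1448183_a_at and from -0.29 to 0.44 for 1416035_at. It ran from -0.0799 to 0.97 for Epas1 1449888_at, from -0.02 to 0.23 for Arnt 1421721_a_at, from -0.16 to 0.52 for 1437042_at, from -0.10 to 0.10 for 1449696_at and from -0.0744 to 0.22 for Vhl 1421071_at. The cause was not tested for any of these.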
